A study of Mus musculus with 14 samples.

Results

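Tuft cells are rare chemosensory cells of the intestinal epithelium, and 9 genes that mark them or carry their signals were followed here in the ileum of high fat diet (HFD)-fed mice. The 9 are Sucnr1, Dclk1, Trpm5, Pou2f3, Gfi1b, Il25, Avil, Alox5ap and Ltc4s. They were chosen by name for their role in tuft cells, with earlier results of these data known. All 9 were found among the 54532 genes of the count table. Of these, 7 had enough reads for the test across genes, which covered 13846 genes, and Gfi1b and Il25 did not.

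RNA from scraped ileum mucosa was sequenced from 7 wild-type (WT) mice and 7 mice lacking the nuclear receptor corepressor NCoR1 in intestinal epithelial cells (IKO), all fed the HFD for 15 weeks. Mice of both groups carried NCoR1 flox/flox alleles, and IKO mice also carried Cre recombinase under the villin promoter, which is active across the intestinal epithelium, so cells of the mucosa that are not epithelial keep the gene. The mice were male according to the study's methods, and the labels give no age. The labels call the cells intestinal epithelial cells, but the scraped mucosa also held RNA of other cells, as given below.

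A tuft cell senses compounds in the lumen through receptors such as the succinate receptor SUCNR1. The signal runs through a G protein and a phospholipase C to calcium release and to TRPM5, a cation channel opened by calcium. The cell then releases the cytokine IL-25 and cysteinyl leukotrienes, which act on innate lymphocytes that in turn, through IL-13, drive the formation of more tuft and goblet cells. The transcription factor POU2F3 is required for tuft cells to form. POU2F3 belongs to a family that binds the octamer ATGCAAAT, so the promoter windows of the 9 genes were searched for these letters on both strands.

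The octamer was present in the 250 bases before the start of Sucnr1 and in none of the other windows that were available. RefSeq promoter sequences (GRCm38.p6) were matched for 6 of the 9 genes, in 7 windows since Dclk1 has a pair of starts, and 1.60% of all 32851 windows hold the octamer in either strand. In Sucnr1 it lies on the strand of the gene and begins 48 bases before the start. The Sucnr1 window is shown because it is the only match, and the Avil window is shown beside it because Avil is the gene of the 9 that passed the test. Capitals mark the octamer. Both windows are on the plus strand, at chr3:60081619-60081868 for Sucnr1 and chr10:127000459-127000708 for Avil.
Sucnr1: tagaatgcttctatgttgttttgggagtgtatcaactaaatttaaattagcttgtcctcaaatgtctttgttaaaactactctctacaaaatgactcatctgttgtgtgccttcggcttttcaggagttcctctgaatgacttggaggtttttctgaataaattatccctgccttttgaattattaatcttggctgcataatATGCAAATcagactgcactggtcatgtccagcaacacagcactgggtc
Avil: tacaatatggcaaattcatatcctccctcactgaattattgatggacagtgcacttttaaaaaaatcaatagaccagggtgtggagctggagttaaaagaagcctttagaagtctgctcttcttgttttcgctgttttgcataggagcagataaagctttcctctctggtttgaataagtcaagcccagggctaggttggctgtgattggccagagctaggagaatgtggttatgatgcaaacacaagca
A match is a stretch of letters only, and no binding was measured.

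Levels are given as CPM, the reads of a gene scaled to a common library size, after scaling between libraries by the trimmed mean of M-values. The libraries held 14749669 to 21557468 counts. The mitochondrial share of counts was 50.29% for IKO 4, 23.91% for WT 3 and 3.491% to 10.34% for the other mice. Ncor1 was 134.7 ± 31.3 CPM (SD, n = 7) in WT and 50.6 ± 10.97 CPM in IKO (n = 7), with every IKO mouse below every WT mouse. A list of 8 epithelial genes such as Epcam and Vil1 summed to 11537 to 16846 CPM in WT and 14259 to 20036 CPM in IKO. B cell genes summed to 6.16 to 694.5 CPM in WT, with WT 3 highest, and to 13.3 to 60.8 CPM in IKO. Smooth muscle genes reached 10855 CPM in WT 4, against 5.08 to 62.4 CPM in the other WT mice, and were 795.8 CPM in IKO 1 and 391.6 CPM in IKO 2, against 4.53 to 30.3 CPM in the other IKO mice.

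In brief, each of the 7 tested genes had a lower mean in IKO than in WT, but only Avil passed the test. Avil was 2.24-fold lower in IKO. Sucnr1 and Dclk1 were lower by 2.04-fold and 1.91-fold without passing. The log2 fold changes ran from -1.17 to -0.32 with a median of -0.85, beside a median of -0.09 over all genes tested. A log2 fold change below 0 was found for 56.5% of all genes tested, and 4.28% were called lower in IKO at an adjusted p under 0.05 by edgeR's quasi-likelihood test, against 1 of the 7. Before adjustment, 2 of the 7 had a p under 0.05 and were lower, as did 18.5% of all genes tested. In these samples of whole mucosa, fewer tuft cells, less RNA per tuft cell and a different share of other cells cannot be told apart.

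**Figure D1:**
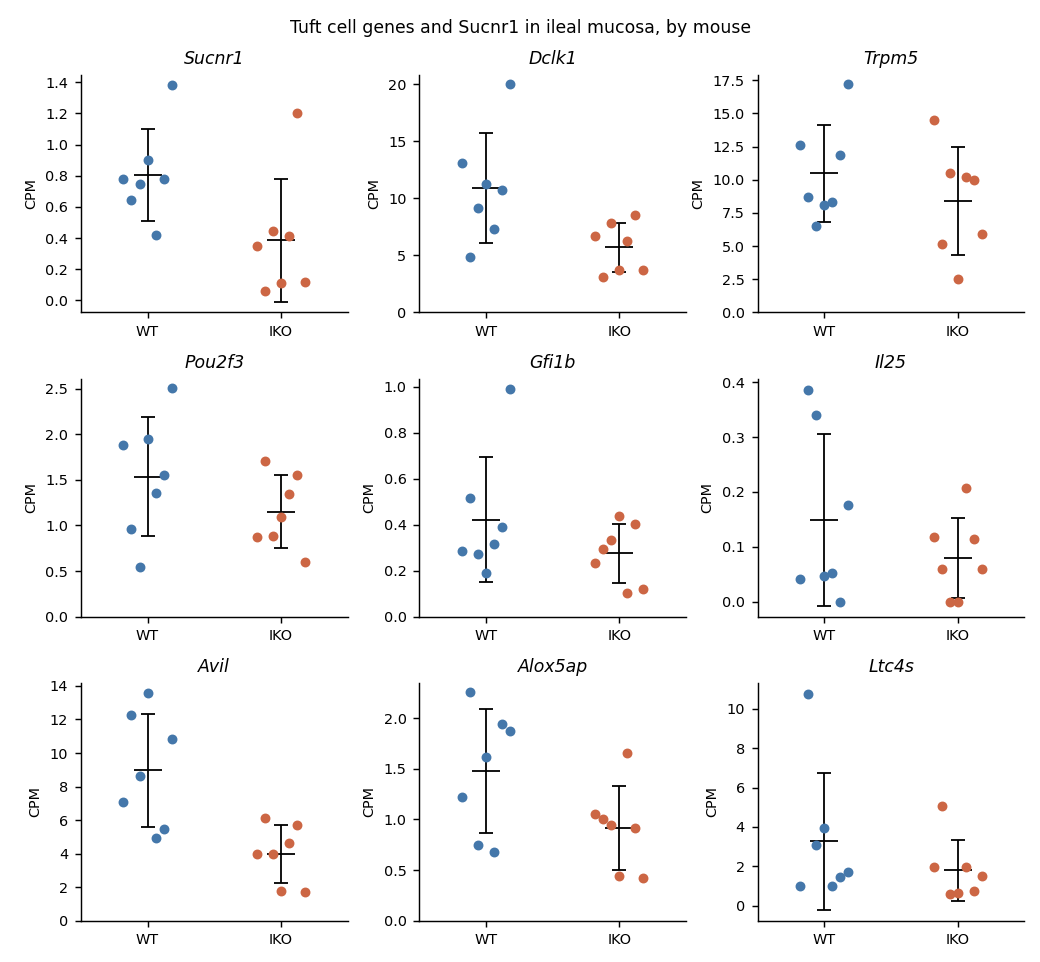
Level of each of the 9 genes in CPM (vertical axis, from 0, separate scale per gene) in the 7 WT and 7 IKO mice. Each point is a mouse, the horizontal bar is the group mean and the whiskers are 1 SD. All 7 IKO mice lie below the WT median for Avil and Dclk1, and IKO 6 lies apart from the other IKO mice for Sucnr1.

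Sucnr1 (ENSMUSG00000027762, chr3:60081869-60087566 on the plus strand of mm10) encodes the receptor for succinate. It was among the less abundant of the 9 genes, with 8 to 39 reads per WT mouse and 1 to 21 reads per IKO mouse. In WT it ran from 0.419 to 1.38 CPM with a median of 0.776 CPM. In IKO it ran from 0.0589 to 1.21 CPM with a median of 0.351 CPM. Of the 7 IKO mice, 5 lay below the lowest WT mouse, and IKO 6, at 1.21 CPM (95% exact Poisson interval 0.746 to 1.84 CPM), lay above all WT mice but WT 7.

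The mean level of Sucnr1 was 0.807 ± 0.294 CPM in WT and 0.386 ± 0.394 CPM in IKO (SD, n = 7 each). The log2 fold change was -1.03 ± 0.52 (SE) with an adjusted p of 0.190 by edgeR, so Sucnr1 was not called. A two-sided exact permutation test of its log2 level alone, over all 3432 divisions of the mice into 7 and 7, gave an unadjusted p of 0.0186, where the smallest possible was 0.000583. This p was 0.0541 by the same exact permutation test without WT 3 and IKO 4. Without IKO 6 the log2 fold change was -1.63 with an adjusted p of 0.0458 by edgeR, and 4.52% of all genes tested were then called lower. IKO 6 was the highest IKO mouse for Sucnr1, so leaving it out could only lower the IKO mean. The other fits that left out 1 mouse gave adjusted p values of 0.169 to 0.325 by edgeR. The intervals cover counting error only.

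Dclk1 (ENSMUSG00000027797, chr3:55242364-55539068, plus strand) encodes a microtubule-associated kinase that is widely used as a tuft cell marker. It ran from 4.83 to 19.99 CPM in WT with a median of 10.7 CPM. The IKO mice lay between 3.12 and 8.55 CPM with a median of 6.29 CPM. All 7 IKO mice lay below the WT median, and 5 of the 7 WT mice lay above the highest IKO mouse. Its log2 fold change was -0.94 ± 0.31 (SE), and its adjusted p of 0.0680 by edgeR missed the threshold. The exact permutation p of Dclk1 alone was 0.0192, and 0.0519 without WT 3 and IKO 4. With DESeq2 the adjusted p was 0.0374 and Dclk1 was called, where 1382 of 29041 genes (4.76%) were called lower. The edgeR test called 593 of 13846 genes lower, so the shares of the 2 tests are over different sets of genes. Without WT 2, the lowest WT mouse for Dclk1, the adjusted p by edgeR was 0.0361. The other fits that left out 1 mouse gave adjusted p values of 0.0555 to 0.139 by edgeR.

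Trpm5 (ENSMUSG00000009246, chr7:143069153-143094642, minus strand), the channel at the end of the signaling cascade, was not called. It ran from 6.52 to 17.2 CPM in WT with a median of 8.70 CPM. In IKO it ran from 2.51 to 14.5 CPM with a median of 9.99 CPM. The IKO median was thus the higher of the pair while the IKO mean was the lower, and IKO 4 had the lowest value. For Trpm5 the log2 fold change was -0.32 ± 0.33 (SE), with an adjusted p of 0.529 by edgeR.

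Pou2f3 (ENSMUSG00000032015, chr9:43123939-43210369, minus strand) ran from 0.544 to 2.51 CPM in WT with a median of 1.55 CPM. The range in IKO was 0.602 to 1.71 CPM with a median of 1.09 CPM. The groups overlapped: 6 of 7 IKO mice lay below the WT median and 3 WT mice lay above the highest IKO mouse, but no IKO mouse was below the lowest WT mouse, WT 3. Its log2 fold change was -0.42 ± 0.34 (SE), with an adjusted p of 0.420 by edgeR.

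Gfi1b (ENSMUSG00000026815, chr2:28609450-28621982, minus strand), a zinc-finger repressor found in tuft cells and in blood cell precursors, had 65 reads in all WT mice together and 30 in all IKO mice, too few for the test across genes. It ran from 0.190 to 0.991 CPM in WT with a median of 0.314 CPM. In IKO it ran from 0.103 to 0.437 CPM with a median of 0.295 CPM. The WT mean rested on WT 7, which had 28 of the 65 reads, and the exact permutation p was 0.199.

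Il25 (ENSMUSG00000040770, chr14:54932695-54935837, plus strand), the cytokine that tuft cells release, was near the limit of detection, with 19 reads in WT and 10 in IKO. It had no read in WT 6, IKO 3 and IKO 4. A count of 0 allows up to 0.146 CPM in WT 6, 0.166 CPM in IKO 3 and 0.328 CPM in IKO 4, taking 3 counts as the limit. The highest levels were 0.387 CPM in WT and 0.206 CPM in IKO, with medians of 0.0523 and 0.0602 CPM. No difference was detectable at this depth (exact permutation p = 0.421).

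Avil (ENSMUSG00000025432, chr10:127000709-127020994, plus strand) encodes advillin, a relative of villin that binds actin and marks tuft cells among epithelial cells. It ran from 4.92 to 13.6 CPM in WT with a median of 8.63 CPM. The IKO mice ran from 1.69 to 6.13 CPM with a median of 3.99 CPM. All 7 IKO mice lay below the WT median and 5 lay below the lowest WT mouse, WT 5. The mean was 8.98 ± 3.36 CPM in WT and 3.98 ± 1.74 CPM in IKO (SD, n = 7 each). The log2 fold change was -1.17 ± 0.33 (SE), with an adjusted p of 0.0413 by edgeR and an exact permutation p of 0.00408 for Avil alone.

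The call of Avil was close to its threshold, although its direction held in all 27 alternatives tried. It was lost in 17 of them, among which are 10 of the 14 fits that left out 1 mouse (WT 1, WT 2, WT 3, WT 4, WT 7, IKO 1, IKO 3, IKO 4, IKO 5 or IKO 7) and the fit without WT 3 and IKO 4 (adjusted p = 0.0868 by edgeR). The adjusted p ran from 0.00740 to 0.142. Of the exons of Avil, 4.86% overlap those of Tsfm on the opposite strand, and the strand setting of the counting is not given. Tsfm had a log2 fold change of 0.47 with an adjusted p of 0.138 by edgeR.

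Alox5ap and Ltc4s act in leukotriene synthesis, Alox5ap (ENSMUSG00000060063, chr5:149264767-149288153, plus strand) as the protein that presents arachidonic acid to 5-lipoxygenase and Ltc4s (ENSMUSG00000020377, chr11:50236461-50238616, minus strand) as the synthase of leukotriene C4. Alox5ap ran from 0.680 to 2.25 CPM in WT with a median of 1.61 CPM. In IKO it ran from 0.422 to 1.65 CPM with a median of 0.942 CPM. Most IKO mice lay below the WT median, 6 of 7, but the groups overlapped. The log2 fold change was -0.67 ± 0.37 (SE), with an adjusted p of 0.227 by edgeR.

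Ltc4s ran from 0.981 to 10.8 CPM in WT with a median of 1.70 CPM, and from 0.610 to 5.07 CPM in IKO with a median of 1.51 CPM. A single mouse in each group stood apart, WT 2 at 10.8 CPM and IKO 2 at 5.07 CPM. The log2 fold change was -0.85 ± 0.60 (SE), with an adjusted p of 0.350 by edgeR. It was -0.16 without WT 2 and -1.37 without IKO 2, so that its size rested on these mice. Of the exons of Ltc4s, 26.4% overlap an antisense gene, Gm26542, which had 104 reads in all mice together.

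The number of genes called changed with 1 of the 2 other scalings tried. With RLE scaling it stayed at 1. When levels were taken relative to the 8 epithelial genes, which had a median log2 fold change of 0.37, 3 of the 7 were called lower, namely Avil with a log2 fold change of -1.49, Sucnr1 with -1.45 and Dclk1 with -1.19. In this fit 12.1% of all genes tested were called lower, and the median log2 fold change of all genes tested was -0.36. The fit used limma on log2 levels in place of edgeR, so the scaling and the test changed together and their parts cannot be told apart. None of the 7 genes had groups that did not overlap, as 1.26% of all genes tested did with every IKO mouse below every WT mouse.

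**Figure D2:**
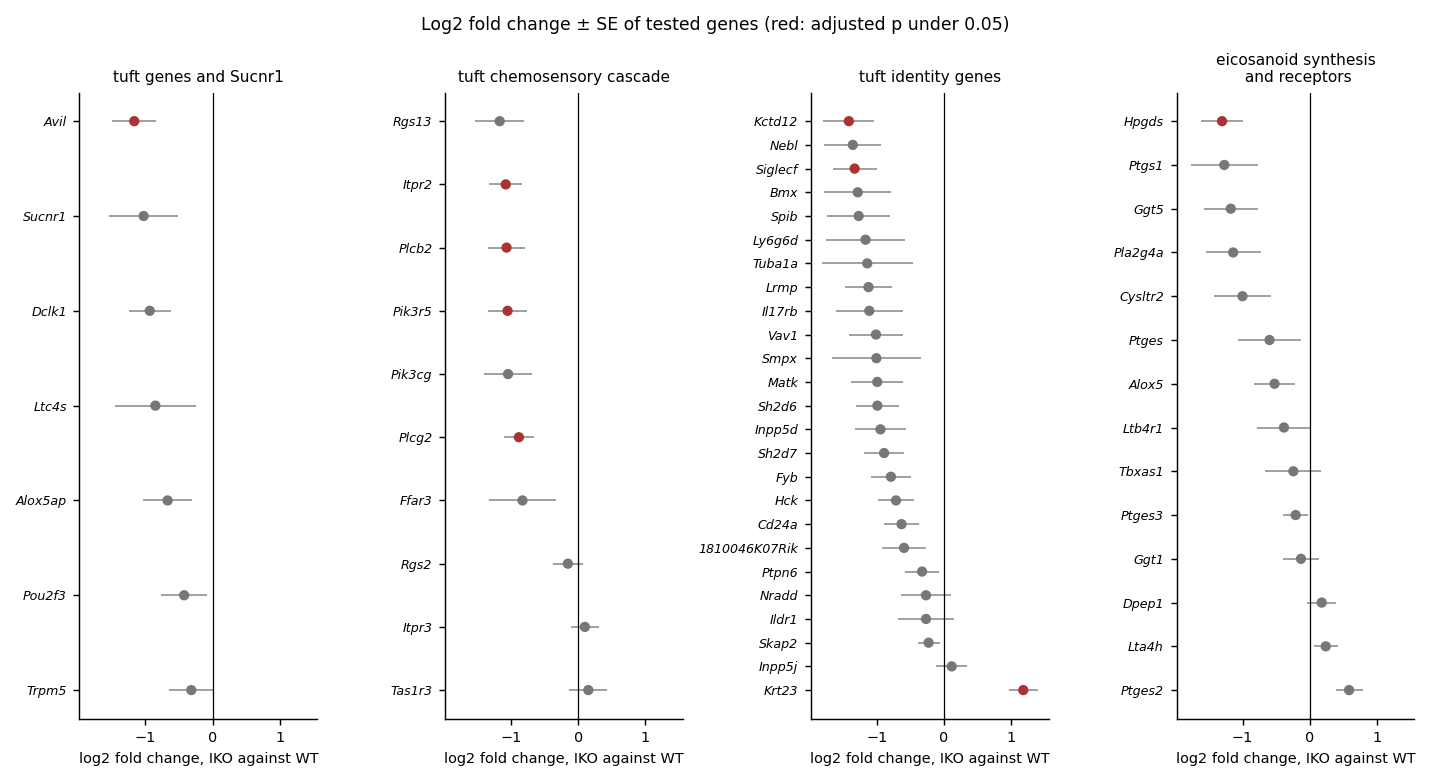
Log2 fold change, IKO against WT (horizontal axis), with its SE (bars) for the tested genes of 4 lists, each point a gene and red marking an adjusted p under 0.05 by edgeR. Most points lie left of 0, and Krt23 is the red point to the right.

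The other genes of the tuft cell cascade were then described, from a list of 14 that holds the G protein, phospholipases, inositol trisphosphate receptors, kinases and taste receptors. Of these 10 were tested, 4 fell and none rose. Over all genes tested, 4.28% were called lower and 4.38% higher. The list had a median log2 fold change of -0.96. Itpr2, a calcium release channel of the endoplasmic reticulum, fell from 32.0 ± 7.60 CPM in WT to 15.1 ± 6.30 CPM in IKO, with a log2 fold change of -1.08 ± 0.25 (SE, adjusted p = 0.0175 by edgeR).

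Plcb2, the phospholipase C of taste signaling, had a log2 fold change of -1.07 with an adjusted p of 0.0296 by edgeR. Plcg2, another phospholipase C, had one of -0.88 with an adjusted p of 0.0300 by edgeR. Pik3r5, a regulatory subunit of phosphoinositide 3-kinase gamma, had one of -1.05 with an adjusted p of 0.0413 by edgeR. Of 27 alternatives, the call was lost in 2 for Itpr2, 12 for Plcg2, 13 for Plcb2 and 17 for Pik3r5. Plcg2 and Pik3r5 are also expressed in leukocytes. Itpr3 (0.10), Tas1r3 (0.15) and Rgs2 (-0.15) had log2 fold changes near 0 and were not called.

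Without WT 3 and IKO 4 none of the 10 cascade genes was called by edgeR, and 7 had an unadjusted p under 0.05, as did 26.1% of all genes in that fit. With all mice kept, B cell genes, 6 of 6 tested, were lower in IKO by a median log2 fold change of -2.23. Of the 6, 5 had an unadjusted p under 0.05 and none was called, and 18.5% of all genes tested were lower at this threshold. The part of B cells in the cascade result was not tested.

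Of 29 genes taken as tuft cell identity genes, 25 were tested, and 23 of these had a log2 fold change below 0, with a median of -0.99. Over all genes tested 56.5% were below 0, with a median of -0.09. Of the 25, 2 fell and 1 rose, beside 4.28% and 4.38% of all genes tested. Siglecf, a sialic acid-binding lectin found on tuft cells and eosinophils, fell from 5.94 ± 2.24 CPM to 2.35 ± 0.967 CPM, with a log2 fold change of -1.33 ± 0.33 (SE, adjusted p = 0.0238 by edgeR). It was the only 1 of the 25 whose groups did not overlap, at 3.32 to 8.97 CPM in WT and 0.984 to 3.21 CPM in IKO. Over all genes tested, 1.26% had every IKO mouse below every WT mouse. Kctd12 fell with a log2 fold change of -1.42 (adjusted p = 0.0352 by edgeR), and its call was lost in 16 of 27 alternatives. Without WT 4 the log2 fold change of Kctd12 was -1.003 (adjusted p = 0.0599 by edgeR). The other fits that left out 1 mouse gave Kctd12 log2 fold changes of -1.67 to -1.34. Krt23, a keratin, rose from 7.85 ± 2.20 CPM to 17.8 ± 4.89 CPM, with a log2 fold change of 1.18 ± 0.22 (SE, adjusted p = 0.00660 by edgeR). Siglecf and Kctd12 were not called without WT 3 and IKO 4 (adjusted p = 0.0631 and 0.0702 by edgeR), and Krt23 was. Before adjustment 15 of the 25 had a p under 0.05 and were lower, beside 18.5% of all genes tested. Several of these genes, such as Spib, Vav1 and Inpp5d, are also expressed in leukocytes.

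The leukotriene and prostaglandin genes other than Alox5ap and Ltc4s made a list of 22, of which 14 were tested. Hpgds, which makes prostaglandin D2, fell from 4.09 ± 1.00 CPM to 1.65 ± 0.842 CPM, with a log2 fold change of -1.30 ± 0.32 (SE, adjusted p = 0.0225 by edgeR). It was the only gene of this list that was called, and 4.28% of all genes tested were called lower. The list had a median log2 fold change of -0.45. Without WT 3 and IKO 4 its adjusted p by edgeR was 0.0631. Alox5, the 5-lipoxygenase, had a log2 fold change of -0.52 and was not called.

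The genes of the circuit around IL-25 and IL-13, a mixed list of cytokines, receptors, transcription factors and targets, gave no single direction. Of 22 genes in this list 11 were tested, with a median log2 fold change of 0.20. Areg, a ligand of the epidermal growth factor receptor, rose from 11.6 ± 8.05 CPM to 51.7 ± 23.0 CPM, with a log2 fold change of 2.16 ± 0.40 (SE, adjusted p = 0.00709 by edgeR). Rora, a nuclear receptor needed by innate lymphocytes, fell from 2.82 ± 1.90 CPM to 0.639 ± 0.455 CPM (log2 fold change -2.11, adjusted p = 0.0354 by edgeR). Without WT 3 and IKO 4 the call of Rora was lost (adjusted p = 0.0911 by edgeR) and that of Areg was kept. Il13 had 1 read in all 14 mice. The goblet cell genes Clca1 and Muc2 had log2 fold changes of 0.09 and 0.20 and were not called.

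Carriers that move succinate were described because SUCNR1 binds it. Of 5 such genes 3 were tested and none was called. Slc13a2, the apical carrier of dicarboxylates, had a log2 fold change of -0.62, and Slc25a10, the mitochondrial dicarboxylate carrier, had one of 0.61, with adjusted p values of 0.194 and 0.0803 by edgeR.

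**Figure D3:**
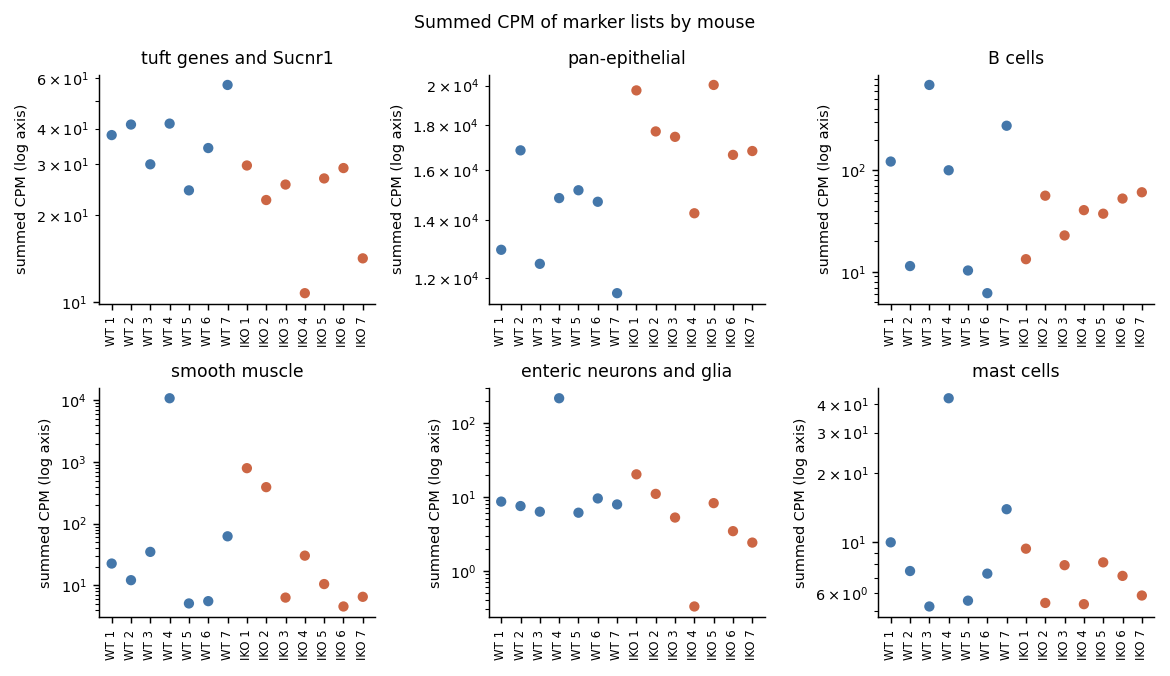
Summed CPM of 6 gene lists (vertical axes, logarithmic) in each of the 14 mice, WT in blue and IKO in red. WT 4 stands apart for smooth muscle, neuron and mast cell genes, and WT 3 is highest for B cell genes.

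Markers of other cells differed widely between mice, with smooth muscle genes high in WT 4, IKO 1 and IKO 2 and B cell genes high in WT 3 (694.5 CPM), WT 7 (275.2 CPM), WT 1 (122.2 CPM) and WT 4 (100.2 CPM). WT 4 had the highest summed level of smooth muscle, fibroblast, neuron and glia, and mast cell genes, with mast cell genes at 42.4 CPM against 5.23 to 13.9 CPM in the other WT mice. Of all the cell type markers only Cd14, a macrophage gene, was called (log2 fold change 0.77, adjusted p = 0.0328 by edgeR). Over all genes tested, 4.38% were called higher and 4.28% lower. Cd14 went against most of its list, as 9 of the 11 macrophage genes tested had a log2 fold change below 0, with a median of -0.35. Stem cell genes had a median log2 fold change of -1.03, with 3 of 5 lower at an unadjusted p under 0.05. Fibroblast genes had one of -2.003, with 4 of 5, and 18.5% of all genes tested were lower at this threshold. These 2 medians were at least as far below 0 as those of the tuft cell lists. The same held for B cell genes (-2.23) and smooth muscle genes (-3.10). Fibroblast genes summed to 354.0 CPM in WT 4, against 6.28 to 62.9 CPM in the other WT mice. Leaving out WT 3, WT 4 and IKO 4 together, which was chosen after the data were seen, gave Avil a log2 fold change of -0.90 (adjusted p = 0.142 by edgeR), Sucnr1 one of -0.89 and Dclk1 one of -0.89. WT 7 was the highest of the 14 mice for Sucnr1, Dclk1, Trpm5, Pou2f3 and Gfi1b and had the lowest sum of epithelial genes, 11537 CPM. It also had the highest sum of macrophage and monocyte genes, 352.9 CPM. The other WT mice had 80.9 to 267.3 CPM and the IKO mice 46.2 to 150.9 CPM. Without WT 7 the log2 fold change was -0.85 for Sucnr1 and -0.74 for Dclk1, neither of which was called. The part of these other cells in the tuft gene levels was not tested.

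To set the genes against the transcription factor of the lineage, log2 ratios were compared between genotypes. For 5 ratios, the differences (IKO minus WT) were -0.83 for Sucnr1 to Pou2f3, -0.57 for Dclk1 to Pou2f3, -0.35 for Ltc4s to Pou2f3, -0.30 for Alox5ap to Pou2f3 and -0.73 for Sucnr1 to Trpm5. None passed after adjustment over the 5. The smallest exact permutation p was 0.0472, for Sucnr1 to Trpm5, with an adjusted p of 0.225. Without IKO 6 the adjusted exact permutation p of this ratio was 0.0233. It was 0.114 to 0.447 when any other single mouse was left out.

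**Figure D4:**
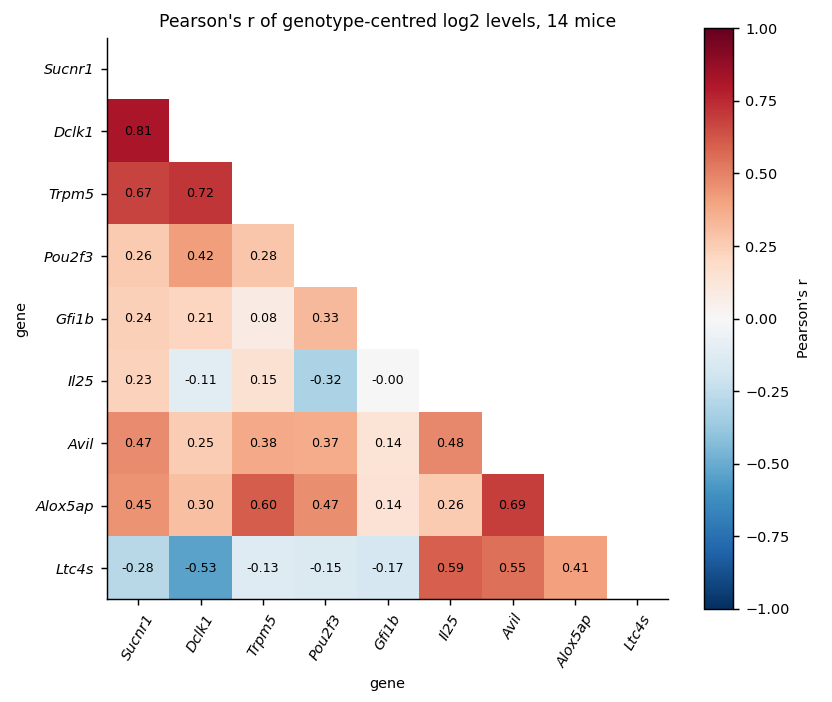
Pearson's r of the log2 levels of each pair of the 9 genes over 14 mice, after the genotype means were subtracted, coloured from -1 (blue) to 1 (red) with the value in each square. Sucnr1, Dclk1 and Trpm5 form the darkest red block.

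Within genotypes, the level of Sucnr1 followed that of Dclk1 from mouse to mouse. After subtraction of the genotype means, Pearson's r was 0.814 over 14 mice (permutation p = 0.00022, adjusted over 36 pairs 0.00792) and Spearman's rho was 0.903 (adjusted permutation p = 0.00288). The r was 0.826 without the 2 mice farthest from the median of Sucnr1, IKO 2 and IKO 6, where its adjusted permutation p was 0.0535, and 0.800 without WT 3 and IKO 4. No other of the 36 pairs passed. Dclk1 and Trpm5 came next with r of 0.717 (adjusted permutation p = 0.0693). Of the 36, 28 had r above 0, and Ltc4s and Dclk1 had the lowest r, -0.53.

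The genes whose levels were most like that of Sucnr1 within genotypes, among all 13846 tested, were Rin2 (r = 0.837), Cpm (0.824), Alox5 (0.821), Tmem184c (0.817) and Sned1 (0.816). Dclk1 was the 6th at 0.814. Those most like Pou2f3 were Bex1 (0.862), Gm38910 (0.859), 2410131K14Rik (0.854), Bub3 (0.849) and Ogg1 (0.849). Among the tested genes of the 9, Alox5ap was the nearest to Pou2f3 at 0.467. These r are descriptions over 14 mice.

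**Figure D5:**
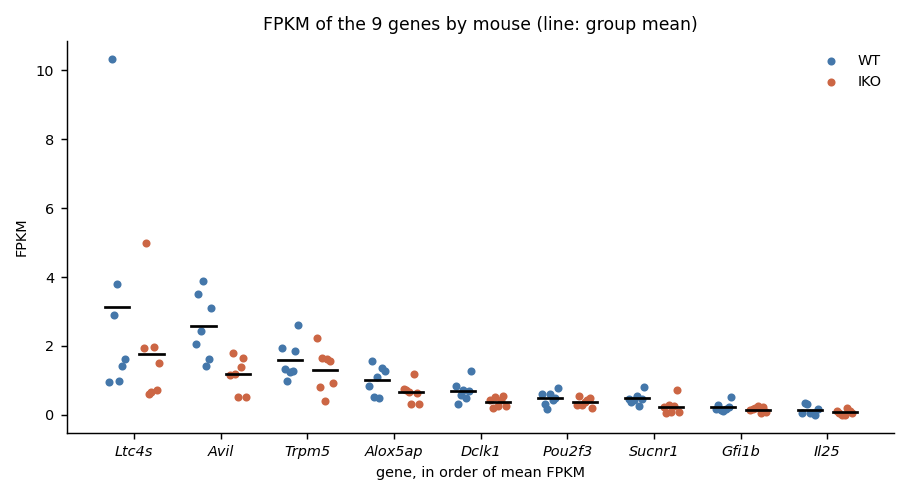
Fragments per kilobase of gene length (FPKM, vertical axis from 0) of the 9 genes in each mouse, ordered by mean, with WT in blue, IKO in red and the black line the group mean. Ltc4s has the widest spread, set by WT 2 and IKO 2.

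Levels between genes were compared per length, in FPKM. The mean over 14 mice was highest for Ltc4s at 2.46 FPKM and then fell through Avil (1.87), Trpm5 (1.46), Alox5ap (0.833), Dclk1 (0.535), Pou2f3 (0.430), Sucnr1 (0.357), Gfi1b (0.188) and Il25 (0.106). The means of IKO mice alone put Trpm5 (1.31) above Avil (1.17), and Pou2f3 and Dclk1 level at 0.374 and 0.373. Of the 8 neighbouring pairs in this order, only Trpm5 over Alox5ap differed by more than the SD of the difference between mice, in the same direction in 13 of 14. Ltc4s exceeded Avil in 7 of 14 mice, and Pou2f3 exceeded Sucnr1 in 10 of 14.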

How the data were processed

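RNA sequencing of ileum mucosa from 14 mice was analysed, with genotype taken from the sample titles and the columns named KO read as IKO. The authors deposited raw read counts per gene, made with HISAT2 2.0.5 and featureCounts 1.5.0-p3 on mm10 according to the submitters' processing notes, which also name DESeq2 1.16.1. The strand setting of the counting is not given in the sources used here. The authors also deposited FPKM, which equal the count divided by gene length times 1 constant per sample.

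The test across genes was the quasi-likelihood F test of edgeR 4.0.16 under R 4.3.3, fitted to the genes that filterByExpr kept, after TMM scaling. Genotype was the sole factor, and p-values were adjusted by Benjamini-Hochberg over 13846 genes. SE is the fold change divided by the square root of F. Log2 levels used a prior count of 2. Exact permutation tests were two-sided. Correlations used 100000 permutations within genotype. The method was tested on simulated data. Alternatives were DESeq2 1.42.0, RLE scaling, other filters on low counts, a term for sample number, and leaving out mice. Others used limma 3.58.1 on weighted counts, on log2(FPKM + 1) and log2(FPKM + 0.1), and on log2 levels relative to the epithelial genes.

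The members and lists were chosen with earlier results of these data known. The genes named are the 9 members, up to 6 called genes per pathway list and 3 per cell type list by p, the 5 most like Sucnr1 and the 5 most like Pou2f3, and some others of the lists chosen after their values were seen.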

Additional observations from a re-analysis of the deposited data

Results flagged for a closer look

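Values of 1 mouse stood apart from those of the other 6 mice of its genotype in 13 of 58 sets of 7 values. The rule would flag about 1 in 20 sets, or 2.9 of 58, for independent values with a normal spread. These sets share mice and were not put on a log scale, and every flagged value was a highest one. The 2.9 is thus not a chance expectation for them. The gap to the nearest mouse, as a share of the whole range of the 7, is given for each flagged set. Sucnr1 was high in IKO 6 (0.665). Gfi1b was high in WT 7 (0.594). Ltc4s was high in WT 2 (0.697) and in IKO 2 (0.691), and these are the mice on which the size of its fold change rested. The summed level of succinate carriers was high in WT 2 (0.628).

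Among other cell types, WT 4 was high for mast cell genes (0.767), fibroblast genes (0.837), smooth muscle genes (0.995) and neuron and glia genes (0.984). IKO 1 was high for fibroblast genes (0.621), and WT 3 was high for B cell genes (0.609). The mitochondrial share of counts was high in WT 3 (0.676) and in IKO 4 (0.944).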

How the results depend on the processing

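None of the 7 tested genes changed direction in any of the 27 alternatives that gave it a value. Leaving out WT 2 and IKO 2, or WT 4 with WT 3 and IKO 4, was chosen after the data were seen. The number of the 7 called, 1 as reported, was 2 with DESeq2, 3 relative to the epithelial genes, 0 with no filter on low counts, limma-voom, limma on unfiltered log2(FPKM + 1), without WT 3 and IKO 4, without these and WT 4, and without WT 2 and IKO 2, and 0 to 2 with 1 mouse left out. The log2 fold change of Avil was not called with no filter (-1.14), limma-voom (-0.87), unfiltered FPKM (-0.71), without WT 3 and IKO 4 (-1.05), without these and WT 4 (-0.90), without WT 2 and IKO 2 (-1.21) or in 10 of the 14 fits that left out 1 mouse (-1.30 to -1.03 over the 14). Sucnr1 was called relative to the epithelial genes (-1.45) and without IKO 6 (-1.63), with -1.63 to -0.83 when 1 mouse was left out. Dclk1 was called with DESeq2 (-0.90), relative to the epithelial genes (-1.19) and without WT 2 (-1.06), with -1.06 to -0.74 when 1 mouse was left out.

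Of the 1200 genes called over all genes, 50.6% were higher in IKO. The count was 2571 with DESeq2, 508 with no filter (68.1% higher), 1889 with limma-voom, 1036 on log2(FPKM + 1) (68.3% higher), 614 on unfiltered FPKM, 1860 relative to the epithelial genes (10.2% higher), 648 without WT 3 and IKO 4, 433 without these and WT 4, and 515 to 1371 with 1 mouse left out. Called genes of the pathway lists, 10 as reported, numbered 24, 3, 17, 6, 6, 21, 4 and 3 in the same order, and 4 to 14 with 1 mouse left out. Called cell type markers, 1 as reported, numbered 7 with DESeq2, 0 with no filter, 2 with at least 10 counts in every sample, 6 with limma-voom, 3 relative to the epithelial genes, 0 without WT 2 and IKO 2, and 0 to 2 with 1 mouse left out. The causes were not tested.

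Mice of the same number were treated as unpaired in the main fit, and their correlation ran from -0.31 to 0.23. Whether they share a litter, cage or processing order is not given and was not tested. With the number as a replicate block 362 genes were called, none of the 7, 4 of the pathway lists and 2 cell type markers, and the log2 fold change of Avil was -1.19 (adjusted p = 0.121 by edgeR).

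Without WT 3 and IKO 4, 1 of the 9 genes had an exact permutation p under 0.05 in place of 3, and 2 of 36 pairs passed in place of 1. Without the 2 mice farthest on the x axis 0 pairs passed. Of the 5 ratios 0 to 1 passed with 1 mouse left out. Sucnr1, Gfi1b and Il25 rest on few reads, so small differences in them could not be detected at this depth.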
